A study of Mus musculus with 12 samples.

Results

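The islet hormone genes other than insulin and 3 transcription factors tied to the cells that make them were examined in sorted β cells: Gcg (glucagon, α cells), Sst (somatostatin, δ cells), Ppy (pancreatic polypeptide, PP cells), Pyy (peptide YY), Ghrl (ghrelin, ε cells), Irx1 and Irx2 (Iroquois homeobox factors of α cells) and Hhex (a homeobox factor needed for δ cells). These 8 genes, of 21757 protein-coding genes, were taken by name, each with its gene body and 10 kb on either side. Their windows hold 2803 of 21730423 CpGs and 19 of 87689 hypomethylated regions (HMRs), stretches in which neighbouring CpGs are mostly unmethylated. The windows of Ppy and Pyy overlap on chromosome 11 and share 4 of their HMRs.

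Methylation was read by bisulfite sequencing of whole genomes (WGBS) in β cells sorted from MNYI mice, which carry Myt1cCre, Ngn3nCre, Rosa26eYFP and InsApple. Each of Myt1 and Ngn3 drives one part of a split Cre, so that eYFP marks the descendants of progenitors that expressed both (M+N+), and Apple driven by an insulin gene marks β cells. There were 2 eYFP- and 2 eYFP+ libraries at postnatal day 2 (P2) and 4 of each at postnatal day 60 (P60), and all of these cells, eYFP- ones included, carried the same 4 alleles. The cell type label reads all islet cells, whereas the sample titles name sorted β cells, as does the sort described in the study. The titles write eGFP where the study writes eYFP. The eYFP- cells are named M-N+ in the study, but a cell in which the split Cre did not recombine its reporter is also eYFP-. For each stage and sex the study combined at least 3 sorts of 4 to 7 mice, so that single animals cannot be told apart. Whether libraries of the same stage, subtype and sex came from separate mice is not stated. Tests over libraries treat them as separate. Read counts were given for 1 pool per subtype and stage, with 24.0 and 24.2 reads per CpG on average in the P2 eYFP- and eYFP+ pools and 43.6 and 43.3 at P60. Single libraries have HMR positions only.

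A level is the percent of reads on the CpGs of a region that were methylated. Tests on levels are Fisher's exact tests on the reads of 2 pools, two-sided, with p-values adjusted over all regions of a kind. They compare those pools, not mice, and the 95% Wilson intervals given in brackets cover counting error at most. Read numbers of a region are sums over its CpGs, so that a read over several CpGs counts at each of them. Such counts are not independent, and for regions the intervals are too narrow and the p-values too small even for counting error. All distances are from the start of the gene's canonical transcript, counted along its strand.

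The sort was checked on promoters, taken as 500 bp on either side of the start. Of the 10 β-cell markers, the medians of the promoter levels were 9.69% and 9.56% in the P2 eYFP- and eYFP+ pools and 3.45% and 3.91% at P60, and the highest level was 35.1%, at Ins1 in the P2 eYFP+ pool. With stage, 3 of 10 fell in eYFP- cells and 5 of 10 in eYFP+ cells, and none rose. Among all promoters, 6.67% fell and 10.8% rose in eYFP- cells, and 11.8% fell and 10.4% rose in eYFP+ cells. Median levels of the acinar list (Cpa1, Ctrb1, Cel, Pnlip, Prss2) were 72.2% to 76.0% and those of the immune list (Ptprc, Cd68, Lyz2) 58.3% to 62.9%. The endothelial list (Pecam1, Cdh5, Kdr) had medians of 65.3% to 73.8% and the mesenchymal list (Col1a1, Col1a2, Pdgfrb) of 30.3% to 38.3%, while the duct promoter Sox9 had 0.717% to 2.11%. Some of these promoters moved with stage as well: the duct keratin Krt19 rose from 22.8% to 56.7% in eYFP- and from 21.2% to 52.5% in eYFP+ cells, and Ins1 fell from 28.3% to 7.87% and from 35.1% to 5.74%. The macrophage gene Cd68 rose by 12.5 and 11.0 points in eYFP- and eYFP+ cells, the endothelial cadherin Cdh5 fell by 8.45 points in eYFP- cells, and Sox9 rose by 1.40 points in eYFP+ cells. With stage, 1 of 4 tested acinar promoters rose and 2 fell in eYFP- cells, and 1 rose and 1 fell in eYFP+ cells. Of the 3 mesenchymal promoters 2 rose and 1 fell in eYFP- cells and 3 rose in eYFP+ cells. Pdgfrb also differed between P2 subtypes (-9.07 points), where 0.333% of all promoters were called lower in eYFP+ cells. The part of other cells in the stage and subtype differences described here was not tested. The sample titles name no sequencing batch, so that stage cannot be told apart from any batch that follows it. By X chromosome HMRs, 2 libraries, both P2 eYFP-, went against their sex labels, and no comparison here uses sex.

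DNA methylation at CpGs is generally low over active enhancers and CpG-rich promoters and high over most of the rest of the genome. Genes of one endocrine cell type are silent in the others, either within CpG islands that stay unmethylated, as is common for homeobox genes under Polycomb control, or at CpG-poor promoters that carry methylation. The 3 regulators had 111, 120 and 123 promoter CpGs (Irx1, Irx2, Hhex), with ratios of observed to expected CpGs of 0.896 to 0.921. The hormone genes had 8 CpGs (Ghrl) to 37 CpGs (Sst), with ratios from 0.124 at Ppy to 0.577 at Sst, all below the median of 0.606 over 20408 promoters with at least 50 reads in each pool.

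**Figure D1:**
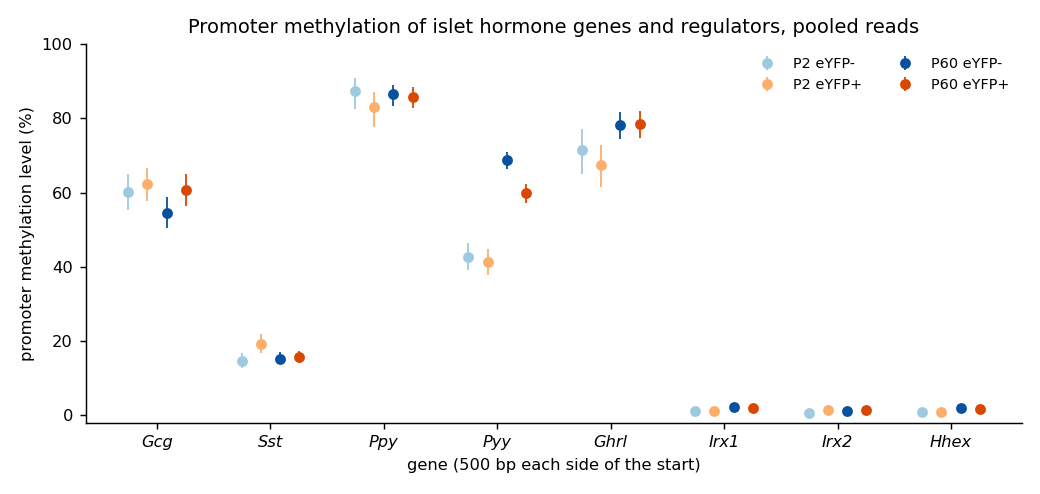
Promoter methylation level (%) of the 8 genes in the 4 pools, over 500 bp on either side of the start, with bars for 95% Wilson intervals of the reads. The promoters of Irx1, Irx2 and Hhex stay under 2.2%, Sst lies between 14.7% and 19.2%, and Gcg, Ppy and Ghrl lie above 54%, while Pyy rises from 42.7% and 41.3% at P2 to 68.7% and 59.8% at P60.

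In all 4 pools Ppy was the highest, followed by Ghrl, and Irx1, Irx2 and Hhex were the lowest, with Sst above them. Gcg lay above Pyy at P2 and below it in the P60 eYFP- pool, with intervals that do not overlap, while the intervals of Gcg and Pyy overlap in the P60 eYFP+ pool. Between P2 subtypes no promoter of the 8 was called at an adjusted p under 0.05, where 0.915% of all promoters were called higher and 0.333% lower in eYFP+ cells. Between P60 subtypes Pyy alone was called, lower in eYFP+ cells, and 0.863% of all promoters were called higher and 0.723% lower. With stage, Pyy, Irx1 and Hhex rose in eYFP- cells, and these 3 and Ghrl rose in eYFP+ cells; 10.8% of all promoters rose and 6.67% fell in eYFP- cells, and 10.4% rose and 11.8% fell in eYFP+ cells. No promoter of the 8 was called lower with stage over these 500 bp on either side, but over 1 kb on either side Gcg fell by 8.75 points in eYFP- cells (adjusted p = 0.00458) and Sst fell by 3.98 points in eYFP+ cells (adjusted p = 0.0232, Fisher's exact test). The median change of the 8 was 0.782 points in eYFP- and 0.915 points in eYFP+ cells, beside -0.0575 and -0.237 points over all promoters.

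Gcg encodes proglucagon, from which α cells cut glucagon. It was the one gene of the 8 without an HMR in its window (chr2:62294873-62323997): no base of it lay in an HMR of any of the 12 libraries or 4 pools. Its promoter level was 60.2% (55.4 to 64.9) in the P2 eYFP- pool, 62.3% (57.8 to 66.6) in the P2 eYFP+ pool, 54.6% (50.5 to 58.8) in the P60 eYFP- pool and 60.8% (56.4 to 65.0) in the P60 eYFP+ pool. The 4 intervals overlap, and none of the 4 comparisons was called (Fisher's exact test), the P60 subtype difference being 6.12 points (adjusted p = 0.412). The cAMP response element TGACGTCA, which holds a CpG, lies 303 bases before the Gcg start. This palindromic sequence was searched for in the promoter windows and is found in 3.51% of all of them; among the 8 genes only Gcg and Sst have it. A stretch of 300 bases just before the start is shown because it holds this element (tgaCGtca), with each of its 9 CpGs in capitals (read from the mm39 genome, minus strand, chr2:62314008-62314307).

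Gcg upstream region: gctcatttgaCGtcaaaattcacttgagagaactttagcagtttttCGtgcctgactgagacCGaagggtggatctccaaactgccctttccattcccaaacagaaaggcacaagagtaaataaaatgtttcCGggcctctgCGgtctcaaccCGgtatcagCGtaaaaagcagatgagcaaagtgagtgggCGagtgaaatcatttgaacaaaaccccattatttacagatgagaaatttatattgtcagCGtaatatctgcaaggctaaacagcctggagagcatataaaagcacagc

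The CpG of the element was methylated in 40.6% of 32 reads (P2 eYFP-), 52.9% of 34 (P2 eYFP+), 36.1% of 36 (P60 eYFP-) and 40.5% of 37 (P60 eYFP+). Across the 9 CpGs the levels ran from 11.1% to 65.5%, and the stretch was no HMR in any library. In the map of the locus a sharp dip stands further upstream. There, 3 CpGs within 82 bp, 1546 to 1627 bases before the start (chr2:62315543-62315624), were methylated in 1 of 142 reads (0.704%, 0.124 to 3.88) in the P2 eYFP- pool, 4 of 96 reads (4.17%, 1.63 to 10.2) in the P2 eYFP+ pool, 0 of 81 reads (0%, 0 to 4.53) in the P60 eYFP- pool and 2 of 136 reads (1.47%, 0.404 to 5.20) in the P60 eYFP+ pool. The nearest CpGs on either side, 374 and 755 bp away, were methylated at 48.6% to 90.9%. This site was chosen after its values were seen. Runs of 3 or more neighbouring CpGs outside HMRs with under 20% methylation in every pool were found in 9.30% of gene windows, and among the 8 genes only at Gcg. Its sequence is shown on the minus strand (chr2:62315509-62315658), again with CpGs in capitals.

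Gcg upstream unmethylated site: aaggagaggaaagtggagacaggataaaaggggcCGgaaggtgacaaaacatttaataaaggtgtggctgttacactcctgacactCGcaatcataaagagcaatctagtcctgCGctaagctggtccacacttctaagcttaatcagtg

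Over the whole Gcg window the level was 77.7% (76.6 to 78.7) and 78.5% (77.5 to 79.5) in the P2 eYFP- and eYFP+ pools and 72.0% (70.9 to 73.1) and 69.7% (68.6 to 70.8) in the P60 pools, which do not overlap the P2 intervals. Outside HMRs the genome as a whole had 77.0% and 77.6% at P2 and 77.2% and 76.5% at P60. The fall was not particular to Gcg: outside HMRs the Sst window went from 76.1% and 74.8% to 70.2% and 68.8%. That of Irx1 went from 70.1% and 72.2% to 65.0% and 65.6%, while those of Ppy, Pyy and Ghrl rose. Counts in the Gcg window were 5761 and 6111 at P2 and 6840 and 6746 at P60, a smaller gain than that of the mean reads per CpG of the pools. The window level was not part of a test.

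**Figure D2:**
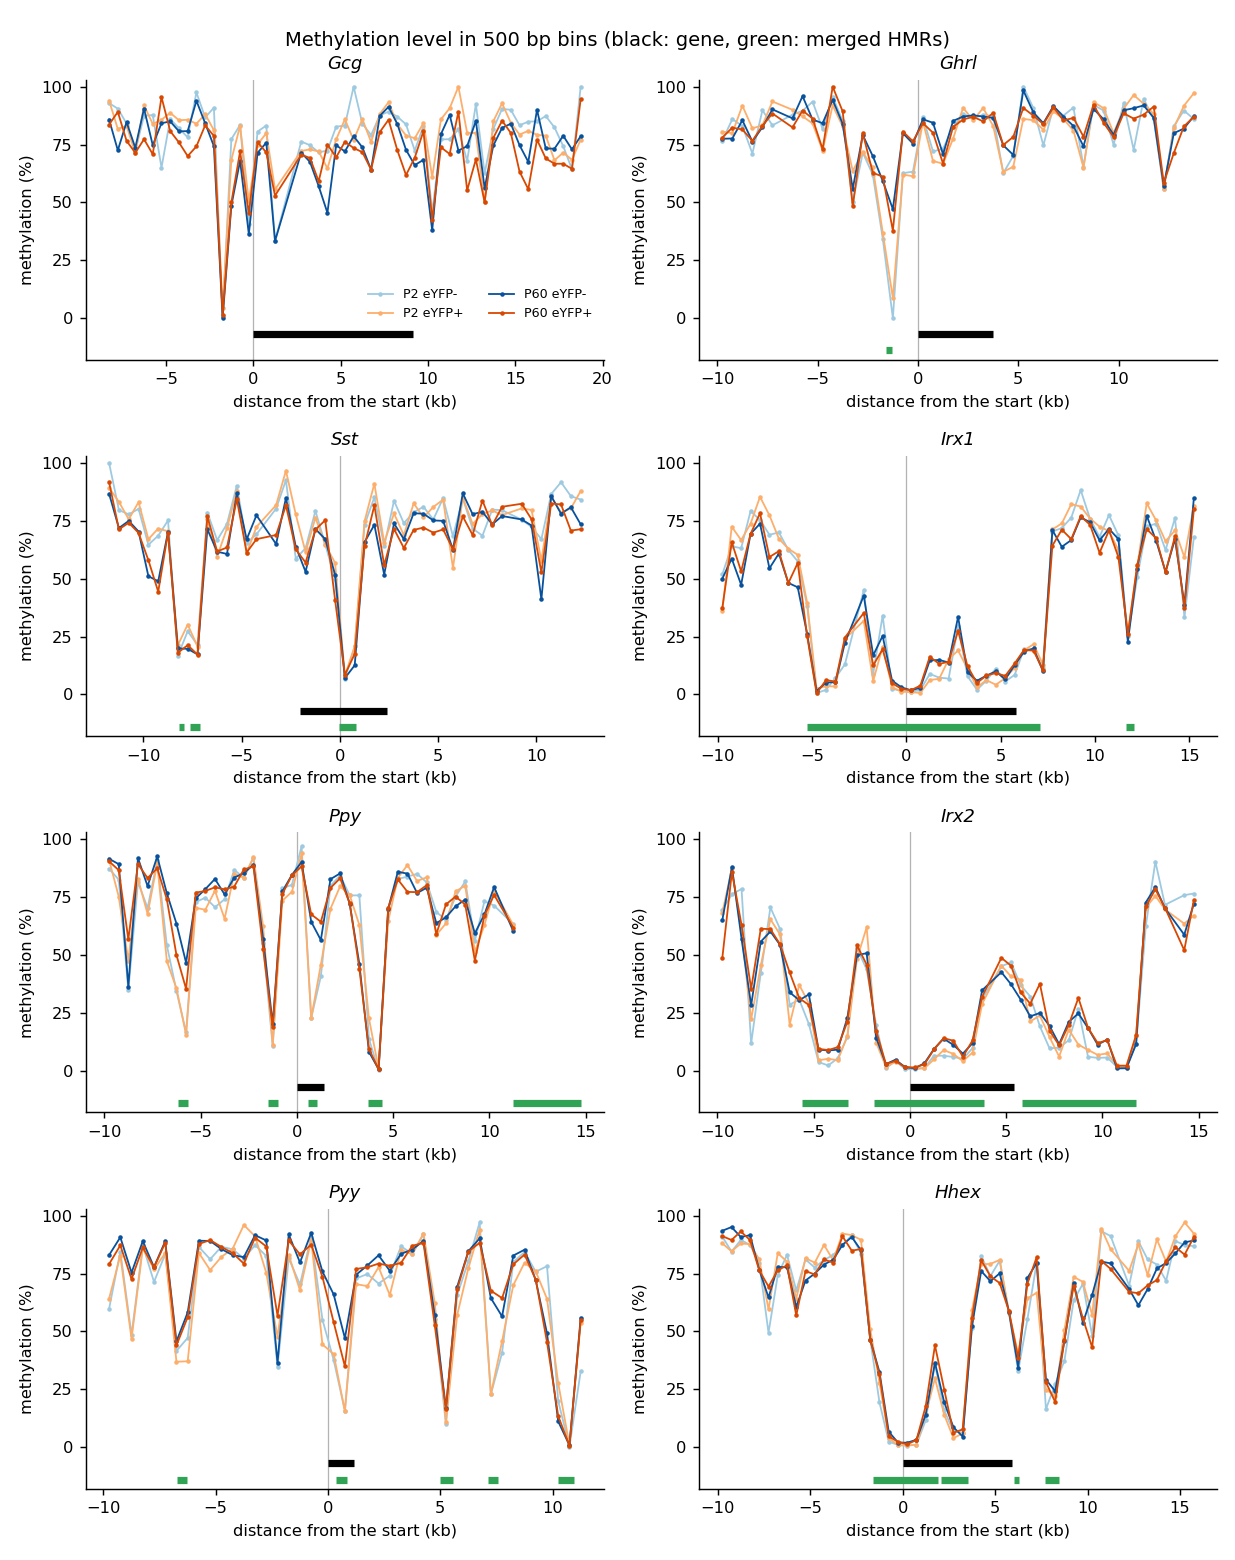
Methylation level (%) in bins of 500 bp against the distance (kb) from the start of each of the 8 genes, one line per pool, with the gene in black and merged HMRs in green. Broad troughs cover Irx1, Irx2 and Hhex, Sst has a trough at its start and another near -8 kb, Gcg has no HMR, and the P60 lines of Ghrl, Ppy and Pyy lie above the P2 lines in troughs near the gene.

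Sst, the δ-cell hormone, was the hormone gene with the lowest promoter level. It was 14.7% (12.7 to 16.9) and 19.2% (16.8 to 21.9) in the P2 eYFP- and eYFP+ pools and 15.3% (13.8 to 17.1) and 15.6% (14.0 to 17.3) at P60, and none of the 4 comparisons was called. An HMR ran from 74 bases before the Sst start to 793 bases after it (chr16:23708915-23709782, 39 CpGs) and was found in all 12 libraries. Its level was 9.54% and 11.1% in the P2 eYFP- and eYFP+ pools and 8.47% and 10.5% at P60. A pair of further HMRs lay upstream, at 7121 to 7655 bases (11.8% to 14.5%) and at 7933 to 8212 bases (3.48% to 5.90%) before the start, also in all 12 libraries. None of these 3 HMRs was called in any of the 4 comparisons. Their stage differences lay between -2.56 and 1.16 points, while 42.7% of all HMRs were called higher and 7.92% lower at P60 in eYFP- cells, and 40.2% and 10.4% in eYFP+ cells.

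The share of the Sst window in HMRs was 6.30% and 6.71% in the P2 eYFP- libraries, 6.55% and 6.19% in the P2 eYFP+ libraries, 7.34%, 6.64%, 6.87% and 6.71% in the P60 eYFP- libraries and 7.11%, 6.58%, 6.43% and 5.75% in the P60 eYFP+ libraries. The groups overlap (0.245 points higher at P60, exact permutation test, p = 0.370, n = 4 and 8, adjusted p = 0.482), and without P60 eYFP- replicate 1 or P60 eYFP+ replicate 4 the difference was 0.15 or 0.378 points (exact permutation test, p = 0.545 and 0.0758). The Sst element TGACGTCA begins 66 bases after the annotated start, and its 30 surrounding bases are shown on the minus strand (chr16:23709624-23709653) beside those of Gcg (chr2:62314282-62314311), with the CpG in capitals.

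Sst CRE site: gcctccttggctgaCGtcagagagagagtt
Gcg CRE site: ctaggctcatttgaCGtcaaaattcacttg

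At Sst this CpG was methylated in 0% of 34 reads (P2 eYFP-), 4.55% of 22 (P2 eYFP+), 0% of 45 (P60 eYFP-) and 0% of 53 (P60 eYFP+), beside 36.1% to 52.9% at the same 8 letters of Gcg. A match of letters does not show that a factor binds there. Upstream of the HMR the level was higher: the first CpG in the sequence of the promoter had 52.0% to 62.8%. The 280 bases around the start show how few CpGs that flank has (chr16:23709679-23709958, minus strand, CpGs in capitals).

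Sst promoter: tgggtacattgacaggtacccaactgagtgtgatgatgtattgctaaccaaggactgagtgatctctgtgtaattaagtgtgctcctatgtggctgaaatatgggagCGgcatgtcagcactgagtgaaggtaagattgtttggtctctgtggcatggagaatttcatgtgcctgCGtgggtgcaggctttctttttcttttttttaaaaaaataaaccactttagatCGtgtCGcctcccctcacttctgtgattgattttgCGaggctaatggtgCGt

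Ppy and its neighbour Pyy belong to the neuropeptide Y family, and Ppy is the hormone of PP cells. The Ppy promoter was the most methylated of the 8, at 87.3% (82.6 to 90.9) and 82.9% (77.7 to 87.1) in the P2 eYFP- and eYFP+ pools and 86.4% (83.4 to 89.0) and 85.7% (82.7 to 88.3) at P60. In every pool it lay above 94.6% or more of all promoters, and no comparison was called. With 1 kb on either side, which takes in the HMRs next to it, the Ppy level rose with stage by 15.4 points in eYFP- and 19.3 points in eYFP+ cells. The first of those HMRs, 591 to 1052 bases after the start (chr11:101991093-101991554, 11 CpGs), lies in an exon of Ppy and beyond it and had a level of 22.4% (18.1 to 27.3) and 22.3% (17.9 to 27.5) in the P2 eYFP- and eYFP+ pools, against 62.9% (59.4 to 66.3) and 66.2% (62.6 to 69.6) at P60. The rise was 40.5 points in eYFP- cells (Fisher's exact test, adjusted p = 1.3e-32) and 43.9 points in eYFP+ cells (adjusted p = 1.98e-35). It was an HMR in 1 of 2 eYFP- and 2 of 2 eYFP+ libraries at P2 and in none of the 8 P60 libraries. Of the pools, only those of P2 had it. Its low P2 reads were thus part of its choice, and a rise was favoured in advance.

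The 300 bases of this HMR with the most CpGs are shown because 4 of their 7 CpGs were called one by one in eYFP- and 6 of 7 in eYFP+ cells (chr11:101991256-101991555, minus strand, CpGs in capitals).

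Ppy intragenic HMR: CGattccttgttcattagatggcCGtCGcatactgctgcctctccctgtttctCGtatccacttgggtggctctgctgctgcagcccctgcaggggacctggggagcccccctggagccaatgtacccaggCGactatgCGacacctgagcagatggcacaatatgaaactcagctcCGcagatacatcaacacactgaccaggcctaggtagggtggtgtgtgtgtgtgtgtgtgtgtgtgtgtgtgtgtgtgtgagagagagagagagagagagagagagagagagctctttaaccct

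The 7 CpGs had levels from 10.7% to 32.0% in the P2 eYFP- pool and from 45.8% to 75.8% in the P60 eYFP- pool. In eYFP+ cells they went from 6.67% to 26.7% at P2 to between 56.2% and 72.9% at P60. Every one of the 7 was higher at P60 in both subtypes, in the same reads that gave the call of the HMR.

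A second Ppy HMR, 968 to 1519 bases before the start (chr11:101993113-101993664, 19 CpGs), was found in all 12 libraries. Its level rose from 10.1% to 21.2% in eYFP- cells (11.1 points, adjusted p = 1.06e-07, Fisher's exact test) and from 10.5% to 19.0% in eYFP+ cells (8.48 points, adjusted p = 2.48e-05). The HMR 3714 to 4423 bases after the Ppy start (chr11:101987722-101988431, 29 CpGs), beyond the gene's end and in an exon of the long non-coding RNA Gm57373, moved the other way. It had 5.77% and 11.1% in the P2 eYFP- and eYFP+ pools, a called difference of 5.38 points (Fisher's exact test, adjusted p = 0.0309), and 3.55% and 4.60% at P60. By Fisher's exact test it fell by 2.22 points in eYFP- (adjusted p = 0.0364) and fell by 6.54 points in eYFP+ cells (adjusted p = 9.73e-07), and it was the only HMR of the 19 called lower at P60. The last, 11231 to 14748 bases from the Ppy start, is the start region of Mpp2 and stayed between 2.18% and 3.39%, with called rises of 0.904 and 1.21 points.

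Pyy, which in the pancreas is made by non-β endocrine cells and early endocrine cells, had the largest promoter changes of the 8. Its level was 42.7% (39.1 to 46.4) and 41.3% (37.7 to 44.9) in the P2 eYFP- and eYFP+ pools, 68.7% (66.4 to 70.9) in the P60 eYFP- pool and 59.8% (57.2 to 62.3) in the P60 eYFP+ pool. The P60 eYFP+ minus eYFP- difference was -8.89 points (Fisher's exact test, adjusted p = 2.40e-04), and the intervals do not overlap. By the same exact test the rise with stage was 25.9 points in eYFP- (adjusted p = 3.59e-29) and 18.5 points in eYFP+ cells (adjusted p = 5.54e-14). The HMR in the gene, 359 to 865 bases after the start (chr11:101997793-101998299, 31 CpGs), showed the same order. Its level was 19.3% (16.6 to 22.2) and 17.6% (15.3 to 20.2) in the P2 eYFP- and eYFP+ pools and 49.2% (47.1 to 51.3) and 36.8% (34.6 to 39.0) at P60.

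This Pyy HMR was the one HMR of the 19 called between P60 subtypes, with a difference of -12.4 points (Fisher's exact test, adjusted p = 8.2e-12), where 0.918% of all HMRs were called higher and 1.17% lower in eYFP+ cells. It overlaps the promoter window, so that these are not 2 separate results. The P2 difference was -1.64 points (exact test, adjusted p = 0.791). It rose with stage by 29.9 points in eYFP- (Fisher's exact test, adjusted p = 1.03e-47) and by 19.2 points in eYFP+ cells (adjusted p = 1.09e-24). The difference of these changes was not called in a test across all HMRs (Wald test on log odds of the pools' reads, adjusted value 0.151), which called 1.15% of all HMRs and none of the 19. At the level of libraries it was an HMR in 4 of 4 P2 libraries and in 0 of 8 P60 libraries, a pattern shared by 5.27% of all HMRs and by 1 of the 19 (5.26%). Since no P60 library has it as an HMR, the difference between P60 subtypes has no library values behind it. Neither P60 pool has this HMR, so that its low P2 reads were part of its choice and a rise with stage was favoured in advance.

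A part of this HMR that begins at the start codon of Pyy and stops before the HMR ends is shown, since it holds 19 of the 31 CpGs (chr11:101997950-101998178, minus strand, CpGs in capitals).

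Pyy intragenic HMR: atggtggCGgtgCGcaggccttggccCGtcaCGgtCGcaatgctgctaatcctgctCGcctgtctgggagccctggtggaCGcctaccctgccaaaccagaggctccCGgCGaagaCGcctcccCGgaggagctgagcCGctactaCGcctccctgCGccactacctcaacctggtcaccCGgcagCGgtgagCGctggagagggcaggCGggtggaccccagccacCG

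Of its first CpGs, the 1st went from 28.0% and 31.2% at P2 to 59.5% and 30.9% at P60 in the eYFP- and eYFP+ pools, and the 2nd from 29.2% and 30.8% to 60.8% and 47.1%. Counted from the first base shown, the CpG at base 32 had 0% and 20.6% at P2 and 53.9% and 28.6% at P60, and that at base 57 had 9.09% and 8.57% at P2 and 58.4% and 33.8% at P60. At P60, 18 of the 19 CpGs shown had a lower level in eYFP+ than in eYFP- cells, although no single CpG of the 2797 tested in the windows was called between P60 subtypes. Their common direction comes from the reads that gave the call of the HMR and is no separate support.

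Upstream of Pyy, an HMR 6290 to 6717 bases before the start (chr11:102004948-102005375, 14 CpGs, intergenic) differed between P2 subtypes. Its level was 24.2% (20.3 to 28.6) in the P2 eYFP- pool and 11.5% (8.56 to 15.4) in the P2 eYFP+ pool, a difference of -12.7 points (Fisher's exact test, adjusted p = 0.00238). At P60 the levels were 34.1% and 29.7% (exact test, adjusted p = 0.427). With stage it rose by 9.89 points in eYFP- (Fisher's exact test, adjusted p = 0.00144) and by 18.2 points in eYFP+ cells (adjusted p = 1.30e-10). It was an HMR in all 4 P2 libraries, in P60 eYFP- replicates 2 and 4 and in P60 eYFP+ replicates 1, 2 and 4. Further out, in no HMR, 6 CpGs 8536 to 9738 bases before the Pyy start were called with stage in at least 1 subtype, going from 4.55% to 46.7% at P2 to 52.5% to 93.3% at P60 in eYFP- cells.

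For Ppy, the share of the window in HMRs was 8.14% and 10.7% in P2 eYFP- libraries, 8.84% and 8.71% in P2 eYFP+ libraries, 4.64%, 4.67%, 5.41% and 6.43% in P60 eYFP- libraries and 4.65%, 6.19%, 5.41% and 4.67% in P60 eYFP+ libraries. For Pyy it was 9.77% and 12.4%, then 11.0% and 10.7%, then 4.69%, 5.59%, 4.72% and 6.61%, and then 6.14%, 7.49%, 4.72% and 5.95% in the same order. All 8 P60 libraries lay below all 4 P2 libraries for both genes, as in 33.1% of gene windows. The means fell by 3.83 points at Ppy and fell by 5.22 points at Pyy (exact permutation test, p = 0.00202 each, the smallest that 4 against 8 libraries allow, adjusted p = 0.00640). This test took all libraries as exchangeable and did not use the pairing of the P60 libraries by number. Within eYFP- or eYFP+ libraries alone, the exact permutation p was 0.0667 for both genes, the smallest that 2 against 4 libraries allow. The share also fell when it was divided by each library's own share of autosomal bases in HMRs, which was 2.18% to 2.34% at P2 and 1.70% to 1.80% at P60.

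Ghrl encodes ghrelin, the hormone of the ε cells that are frequent in the fetal islet and rare later. Its promoter level was 71.5% (65.1 to 77.1) and 67.3% (61.4 to 72.8) in the P2 eYFP- and eYFP+ pools and 78.2% (74.4 to 81.6) and 78.5% (74.7 to 81.9) at P60. The rise was called in eYFP+ cells (11.2 points, Fisher's exact test, adjusted p = 0.00826) and not in eYFP- cells (6.72 points, adjusted p = 0.188). Ghrl had 1 HMR, 1302 to 1588 bases before the start (chr6:113698146-113698432, 6 CpGs, intergenic). Its level was 7.94% (4.87 to 12.7) and 12.6% (8.57 to 18.2) in the P2 eYFP- and eYFP+ pools, from 189 and 182 reads, and 52.5% (47.5 to 57.5) and 46.9% (42.0 to 51.9) at P60, from 381 and 390 reads. By Fisher's exact test the change was 44.6 points in eYFP- (adjusted p = 1.48e-26) and 34.3 points in eYFP+ cells (adjusted p = 1.67e-15), the largest in eYFP- cells among the 19 HMRs. Both P2 pools had it as an HMR, but of the single libraries only P2 eYFP- replicate 1 did, and none of the 8 P60 libraries. Neither P60 pool had it, so that its low P2 reads were part of its choice and a rise was favoured in advance. Its sequence is shown whole, with the 6 CpGs in capitals (chr6:113698146-113698433, minus strand).

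Ghrl upstream HMR: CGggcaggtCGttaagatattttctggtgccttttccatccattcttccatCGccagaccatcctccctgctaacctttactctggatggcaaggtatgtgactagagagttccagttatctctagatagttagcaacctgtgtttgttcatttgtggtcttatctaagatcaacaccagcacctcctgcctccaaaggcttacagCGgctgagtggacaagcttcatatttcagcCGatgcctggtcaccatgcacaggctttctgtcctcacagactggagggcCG

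From left to right the 6 CpGs had 30.3%, 5.13%, 13.0%, 0%, 0% and 0% in the P2 eYFP- pool and 83.1%, 27.8%, 66.7%, 49.2%, 36.2% and 54.7% in the P60 eYFP- pool. In eYFP+ cells they had 44.4%, 3.23%, 6.25%, 3.45%, 2.86% and 21.4% at P2 and 80.7%, 28.1%, 66.7%, 48.4%, 29.2% and 37.3% at P60. All 6 were higher at P60 in both subtypes, and 5 of them were called one by one in eYFP- cells and 2 in eYFP+ cells. These are the same reads that gave the call of the HMR. The CpG farthest upstream in the 280 bases around the Ghrl start stayed low at both stages, at 12.9% and 2.70% (P2) and 19.1% and 20.3% (P60), beside 45.0% to 83.6% at the others of that stretch.

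**Figure D3:**
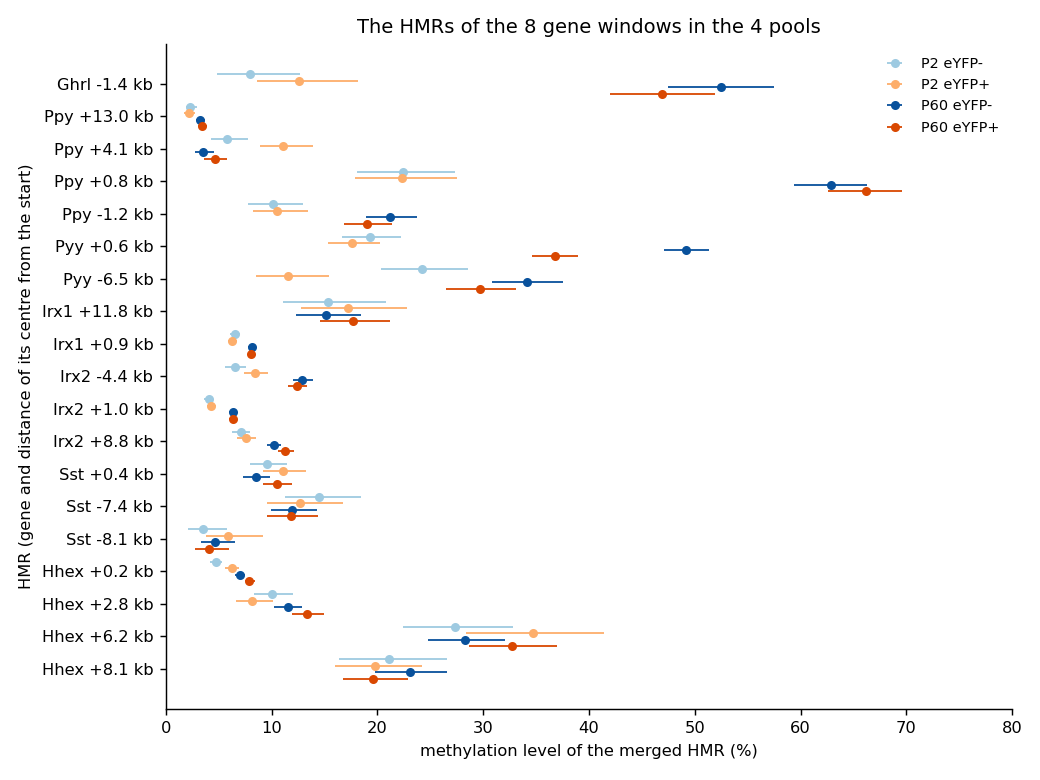
Methylation level (%) of each of the 19 HMRs in the 4 pools, with 95% Wilson intervals; rows are named by gene and the distance (kb) of the HMR's centre from the start. The P60 points stand far to the right of the P2 points at Ghrl -1.4 kb, Ppy +0.8 kb and Pyy +0.6 kb, and the P60 subtypes are apart at Pyy +0.6 kb (49.2% and 36.8%).

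Irx1 and Irx2 lie on chromosome 13 within wide unmethylated domains. The HMR around Irx1 covered 12364 bp, from 5263 bases before the start to 7100 bases after it, beyond the end of the gene (chr13:72104748-72117111, 452 CpGs). Its level was 6.49% (6.04 to 6.98) and 6.27% (5.83 to 6.74) in the P2 eYFP- and eYFP+ pools and 8.09% (7.76 to 8.42) and 8.06% (7.74 to 8.40) at P60. It rose by 1.59 points in eYFP- (Fisher's exact test, adjusted p = 6.76e-07) and 1.80 points in eYFP+ cells (adjusted p = 1e-08). These are small changes, called on 26064 and 25495 counts at P60 that were summed over the 452 CpGs. The subtype differences were -0.226 points at P2 and -0.0235 points at P60. Its promoter was at 1.27% and 1.05% at P2 and 2.18% and 1.97% at P60, with rises called by the exact test of 0.911 points (adjusted p = 0.0331) and 0.919 points (adjusted p = 0.0163). The second Irx1 HMR, 11628 to 12061 bases after the start, stayed between 15.1% and 17.7% with no call, and it was missing only from P60 eYFP+ replicate 1.

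Irx2 had 3 HMRs that together with their gaps spanned most of the locus, all found in all 12 libraries. The one over the start (chr13:72775050-72780739, 353 CpGs) had 4.03% (3.62 to 4.49) and 4.28% (3.85 to 4.75) at P2 and 6.31% (5.98 to 6.66) and 6.30% (5.97 to 6.65) at P60. The upstream one (chr13:72771281-72773701, 86 CpGs) had 6.50% and 8.42% at P2 and 12.9% and 12.4% at P60, and the downstream one (chr13:72782751-72788636, 136 CpGs) had 7.06% and 7.58% at P2 and 10.2% and 11.3% at P60. All 3 rose with stage in both subtypes, by 2.28, 6.44 and 3.16 points in eYFP- and by 2.02, 3.97 and 3.75 points in eYFP+ cells (the largest adjusted p was 2.48e-06, Fisher's exact test), and none differed between subtypes. The Irx2 promoter itself stayed at 0.690% (0.437 to 1.09) and 1.35% (0.958 to 1.90) at P2 and 1.24% (0.992 to 1.54) and 1.46% (1.19 to 1.79) at P60 and was not called. It is shown as the CpG-rich counterpart of the hormone promoters, with 23 CpGs in 280 bases where the Ghrl stretch of that length has 3 (chr13:72776656-72776935, plus strand, CpGs in capitals).

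Irx2 promoter: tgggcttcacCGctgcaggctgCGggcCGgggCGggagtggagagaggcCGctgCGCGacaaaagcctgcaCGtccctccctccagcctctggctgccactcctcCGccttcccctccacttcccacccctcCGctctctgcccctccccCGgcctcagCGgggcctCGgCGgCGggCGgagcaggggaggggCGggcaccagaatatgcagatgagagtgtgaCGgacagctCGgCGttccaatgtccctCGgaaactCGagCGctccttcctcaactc

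Single CpGs were called away from the Irx2 start: one CpG 4300 bases before it went from 6.45% to 44.8%, and one 9196 bases after it from 14.3% to 63.3% in eYFP- cells (adjusted p = 0.0249 and 0.0115, Fisher's exact test over all CpGs). A CpG between HMRs, 2470 bases before the start, fell from 88.0% to 31.2% in eYFP+ cells (exact test, adjusted p = 0.00287).

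Hhex had 4 HMRs. The one over its start (chr19:37421667-37425174, 223 CpGs) had 4.70% (4.17 to 5.29) and 6.24% (5.60 to 6.95) in the P2 eYFP- and eYFP+ pools, a called difference of 1.54 points (Fisher's exact test, adjusted p = 0.0337), and 6.99% (6.56 to 7.45) and 7.89% (7.43 to 8.38) at P60, which was not called (0.898 points, adjusted p = 0.146). It rose with stage by 2.30 points in eYFP- (exact test, adjusted p = 1.68e-08) and 1.65 points in eYFP+ cells (adjusted p = 5.46e-04). The promoter rose from 0.773% to 1.94% (exact test, adjusted p = 1.58e-04) and from 0.828% to 1.74% (adjusted p = 0.00765). The HMR within the gene, 2065 to 3513 bases after the start, rose in eYFP+ cells from 8.15% to 13.3% (5.15 points, Fisher's exact test, adjusted p = 1.13e-04), and its change of 1.49 points in eYFP- cells was not called. A weaker one 6024 to 6283 bases after the start, at the start of the long non-coding RNA Gm59304, had 27.3% to 34.7% and was an HMR in 1 of 4 P2 and 1 of 8 P60 libraries. The last, 7696 to 8436 bases after the start, had 19.6% to 23.1% with no call.

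**Figure D4:**
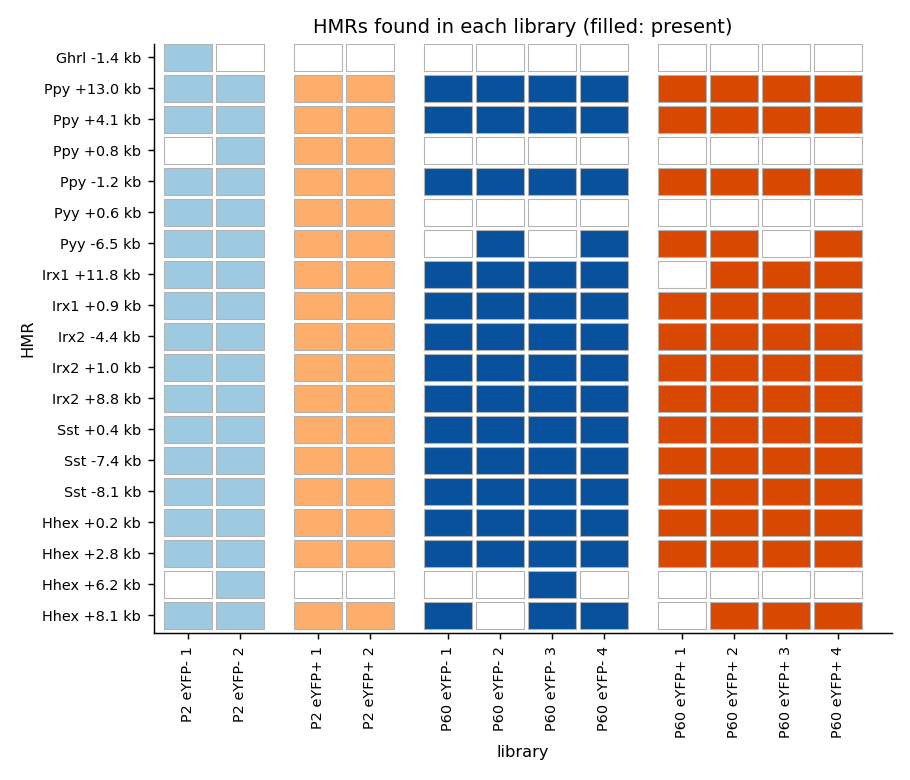
HMRs found in each of the 12 libraries (columns, filled where present), with the 19 HMRs in rows. The HMRs of Sst and Irx2 are filled in every library, whereas Pyy +0.6 kb is filled in 4 of 4 P2 and 0 of 8 P60 libraries.

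Over the 19 HMRs, 11 were called higher and 1 lower at P60 in eYFP- cells, and 12 were called higher and 1 lower in eYFP+ cells. These shares are read against the 42.7% and 40.2% of all HMRs called higher. The median change of the 19 was 2.00 and 1.80 points, beside 2.94 and 2.40 points over all HMRs. Only 4 in each subtype changed by at least 10 points: at Ghrl, in the Ppy gene and in the Pyy gene in both subtypes, and Ppy -1.2 kb in eYFP- and Pyy -6.5 kb in eYFP+ cells. Those that did so in both subtypes were HMRs of the P2 pools only, so that their low P2 reads were part of their choice. Between P2 subtypes 2 were called higher in eYFP+ cells (Ppy +4.1 kb and Hhex +0.2 kb) and 1 lower (Pyy -6.5 kb), where 1.61% and 0.784% of all HMRs were called. Of the 19, 12 were present in all 12 libraries (63.2%), as were 35.2% of all HMRs.

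Among single CpGs, none of the 2773 tested in the windows was called between P2 subtypes and none of the 2797 between P60 subtypes by Fisher's exact test, where 9.92e-05% and 4.55e-05% of all CpGs were called. At an unadjusted p under 0.05 there were 58 and 100, which is 2.09% and 3.58%, beside 2.72% and 3.42% of all CpGs. With stage, 28 rose and 2 fell in eYFP- cells and 19 rose and 4 fell in eYFP+ cells, where 0.723% and 0.722% of all CpGs were called. The Ppy and Pyy windows held 23 of those 30 in eYFP- and 18 of those 23 in eYFP+ cells, and Ghrl held 5 and 3.

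Regions differing between subtypes were rebuilt as parts of an HMR of one subtype outside the HMRs of the other, with at least 50 bp and 2 differing CpGs. At P2, 4 such regions lay in the windows of 4 of the 8 genes (Irx2, Hhex, Ppy and Pyy), where 14.2% of all gene windows held one. The Irx2 region, 5183 to 5625 bases before the start, had 24.4% in eYFP- and 41.3% in eYFP+ cells, and the Hhex region, 1490 to 1591 bases before the start, had 21.8% and 37.2%. That shared by Ppy and Pyy, 769 to 1052 bases after the Ppy start, had 27.4% and 43.0%, and that of Pyy, 6290 to 6391 bases before its start, had 37.3% and 19.8%. At P60 there was 1, 5896 to 7070 bases after the Irx2 start, with 23.6% and 29.5%, where 8.28% of gene windows held one. These regions have no test, and their levels were part of their choice.

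**Figure D5:**
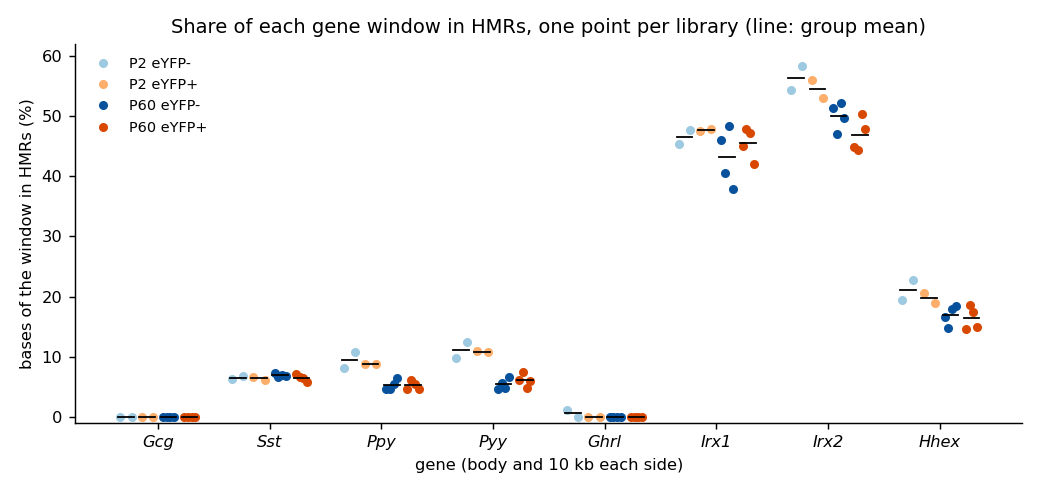
Percent of the bases of each gene window (gene body and 10 kb on either side) that lie in HMRs, one point per library and a line at the mean of each of the 4 groups. Points at P60 lie below those at P2 for Ppy and Pyy and overlap them for Sst, and Gcg is at 0 in all 12 libraries.

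The share of each window in HMRs gave library values for the remaining genes. For Irx2 it was 54.3% and 58.4% in the P2 eYFP- libraries, 56.0% and 53.0% in P2 eYFP+, 51.4%, 47.0%, 52.2% and 49.7% in P60 eYFP- and 44.8%, 44.3%, 50.4% and 47.9% in P60 eYFP+ libraries. For Hhex it was 19.4% and 22.7%, then 20.6% and 19.0%, then 16.6%, 14.8%, 17.9% and 18.4%, and 14.6% to 18.6% in the 4 P60 eYFP+ libraries. The P60 libraries lay below the P2 libraries in both genes, as in 33.1% of gene windows. The means fell by 6.99 points at Irx2 and fell by 3.77 points at Hhex (exact permutation test, p = 0.00404 each, adjusted p = 0.0113), but divided by each library's own autosomal share the difference was 2.80 and 0.363, which turns the direction in both, and Irx2 was then called higher at P60 and Hhex was not called. For Irx1 the share was 47.1% ± 1.20 (SD, n = 4) at P2 and 44.4% ± 3.82 (SD, n = 8) at P60, which overlapped (exact permutation test, p = 0.240, adjusted p = 0.344). The Ghrl share was 1.21% in P2 eYFP- replicate 1 and 0 in the other 11 libraries.

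By stage, 4 of the 7 genes with any HMR were thus called lower at P60 (Irx2, Hhex, Ppy and Pyy), where 48.0% of gene windows were called lower and 1.42% higher. Within eYFP- or eYFP+ libraries alone 0 of these 4 were called, as 2 against 4 libraries cannot give an exact permutation p below 0.0667. Divided by each library's autosomal share, 5 genes were called, Irx1, Irx2 and Sst higher and Ppy and Pyy lower at P60. Between P60 subtypes the groups of 4 libraries overlapped for all 6 genes with an HMR at that stage, as they did not in 1.75% of windows. Their differences ran from -3.23 points at Irx2 (exact permutation test, p = 0.143) to 2.38 points at Irx1 (p = 0.400), and no gene window of 17924 was called by this test (313 had an unadjusted p under 0.05), since 4 against 4 libraries cannot give a p below 0.0286 before adjustment. With P60 libraries paired by replicate number, the eYFP+ library was the lower of its pair in all 4 pairs at Irx2 and at Sst, by the values above, where 4 pairs cannot give an exact permutation p below 0.125. At Irx1, Hhex, Ppy and Pyy the pairs did not all go one way. The share of all gene windows with every pair in one direction was not counted, so no subtype difference is drawn from this. At P2, 2 against 2 libraries cannot give a p below 0.333, and the groups overlapped or tied for all 7 genes, while they did not overlap in 26.9% of windows. No window of 17746 was called at P2, and 0 had an unadjusted p under 0.05 by that permutation test.

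Genes known from the same cell types were described by their promoters from fixed lists. Of the α-cell genes, Fap, a surface protease, was the highest, with 75.0% to 82.2%, and Slc7a2, an amino acid transporter, had 0.611% to 1.13%, with no call at either. Pou3f4, Ttr and Gc were not called in any comparison either. Of the 3 δ-cell genes, Rbp4, a retinol carrier, rose in both subtypes (from 1.39% to 2.91% and from 1.27% to 2.49%), and Lepr, the leptin receptor, rose in eYFP+ cells (4.03% to 7.01%), while Ghsr, the ghrelin receptor, had 4.26% to 5.43% with no call. Over all promoters 10.8% rose in eYFP- and 10.4% in eYFP+ cells. Rbp4 is not restricted to δ cells: the study found its RNA in P60 β cells, higher in those from M+N+ progenitors. The PP-cell gene Etv1 had 0.503% to 1.02% with no call.

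Prohormones are cut by Pcsk1 and Pcsk2, trimmed by Cpe and amidated by Pam, and Mboat4 adds the fatty acid that ghrelin needs. Of these 5 promoters 2 rose and 1 fell with stage in eYFP- cells, and 2 rose and 2 fell in eYFP+ cells, beside 10.8% of all promoters that rose and 6.67% that fell in eYFP- and 10.4% and 11.8% in eYFP+ cells. Mboat4 had the highest level and rose from 42.7% to 54.5% (adjusted p = 0.00248) and from 40.1% to 48.8% (adjusted p = 0.0263, Fisher's exact test). Pcsk1, the convertase of β cells, fell from 7.61% to 3.48% and from 7.59% to 3.88%, and Pam rose from 5.07% to 7.78% and from 4.31% to 9.49%. Pcsk2, the convertase that yields glucagon in α cells, fell from 1.82% to 0.743% in eYFP+ cells and had 0.589% and 0.774% in eYFP- cells.

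Of the 13 receptor promoters, 3 rose and 1 fell with stage in eYFP- cells and 2 rose and 2 fell in eYFP+ cells, and none differed between subtypes. Over all promoters 10.8% rose and 6.67% fell in eYFP- cells, and 10.4% rose and 11.8% fell in eYFP+ cells. Sstr1 rose from 7.83% to 18.5% (adjusted p = 2.57e-10) and from 9.09% to 16.1% (adjusted p = 8.63e-05, Fisher's exact test), and Npy4r, the receptor of pancreatic polypeptide, rose from 13.6% to 22.6% in eYFP- cells. Sstr3 fell from 4.38% to 1.25% and from 7.51% to 1.64%. Glp1r, the GLP-1 receptor of β cells, had the lowest single level (0.388% in the P60 eYFP- pool) and fell from 1.72% to 0.598% in eYFP+ cells, and Glp2r was the highest with 72.8% to 78.7%. The relatives Irx3 to Irx6 had medians of 1.56% to 2.14%, between 0.815% at Irx6 in the P2 eYFP- pool and 3.51% at Irx4 in the P2 eYFP+ pool. One of the 4, Irx5, rose in eYFP- cells (0.983 points, exact test, adjusted p = 0.0492).

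The promoters most like each of the 8 over the 4 pool levels were found by Euclidean distance, in percentage points. Nearest to Gcg were Tgtp2 (3.88) and Asl (3.94), and to Sst Ids (1.16) and Nexmif (1.22). Nearest to Ppy were H2bc1 (1.45) and Iqcf5 (1.99), to Pyy Lamb3 (3.93) and Lipc (6.26), and to Ghrl Cdcp2 (1.72). Among the regulators, Irx1 was nearest to Dlgap2 (0.105) and Cep112 (0.210), Irx2 to Arg2 (0.0865) and Ctsf (0.160), and Hhex to Zfp428 (0.0678) and Col4a1 (0.198). Lamb3, like Pyy, rose with stage, from 41.4% and 41.1% to 65.1% and 60.8%.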

How the data were processed

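T-WGBS reads of 12 libraries were trimmed with Trim Galore 0.6.6 and cutadapt 1.16, per the submitters' processing notes, and mapped to mm39. The study's methods name abismal and MethPipe for mapping, counting and HMR calls, with versions not given in the sources used here. The authors deposited counts of methylated and unmethylated reads per CpG for 4 pools (both strands merged, no replicates), and HMR positions for the pools and each library. The deposited DMR lists hold the authors' own comparisons and were not used. The count columns B1 and B2 were taken as eYFP- and eYFP+ because the parts of HMRs found in 1 pool of a stage overlapped HMRs of the libraries labelled with that subtype more often. For B1 at P2, 58.2% to 60.8% of those parts lay in HMRs of an eYFP- library and at most 13.0% in those of an eYFP+ library, and at P60 42.0% to 55.9% and at most 24.2%.

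The HMRs of the 4 pools were merged into 87689 regions. Levels of HMRs, promoters (500 bp each side of the start, GENCODE vM39) and CpGs were tested with the two-sided exact test of Fisher, and p-values were adjusted by the Benjamini-Hochberg method over all regions (called under 0.05) with at least 50 reads (CpGs with at least 10) in both pools. The test of the difference of stage changes (Wald, 0.5 added to each count) was added after the data were seen. Library values are the percent of a gene window in HMRs, compared by exact two-sided permutation tests over libraries and adjusted over all windows with an HMR. Subtype differences are eYFP+ minus eYFP-, stage differences P60 minus P2. Differing CpGs of rebuilt regions had a probability of a difference over 0.95. Python 3.11.15, numpy 2.4.6, scipy 1.17.1, numba 0.67.0 and pysam 0.24.0 were used, and the Fisher test was tested on simulated data.

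The 8 genes and all lists were chosen with earlier results of these data known. All 8 genes were named, and by rule at most 3 called HMRs or CpGs of each with the largest differences, at most 3 called genes of each list and comparison, the lowest and highest promoter of a list, and the 2 nearest promoters per gene. Other HMRs, CpGs and list genes with values in the text, and the short unmethylated stretch of Gcg with its limit of 20%, were chosen after their values were seen. Replicate numbers paired the P60 libraries, and libraries of the same number share the sex label. Over 84472 autosomal HMRs, libraries of the same number deviated together in each of the 4 pairs (correlations of 0.140 to 0.309). For replicate 2, however, the best partner was a library of another number. At P2 the correlation was 0.0142, and the numbers were not taken as pairs. Alternatives were other read minimums, HMR lengths, flanks and promoter widths, a minimum difference of 10 points, other scalings of the library share, a replicate block and leaving out each library. Some genes of the lists and 1 nearest promoter are not reported here.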

Additional observations from a re-analysis of the deposited data

How the results depend on the processing

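Requiring a difference of at least 10 points left 1 of 3 called HMRs between P2 subtypes, 4 of 12 (eYFP-) and 4 of 13 (eYFP+) with stage, 0 of 1 promoters between P60 subtypes and 1 of 3 and 2 of 4 promoters with stage. With HMRs merged within a stage, 0 HMRs were called between P60 subtypes in place of 1, since the Pyy HMR is no HMR at P60. With promoters of 1 kb on either side, 7 in place of 3 were called with stage in eYFP- cells and 1 in place of 0 between P2 subtypes (Sst, 5.60 points higher in eYFP+ cells), Gcg in eYFP- (-8.75 points) and Sst in eYFP+ cells (-3.98 points) were called lower with stage, and the uncalled Ppy difference of -0.867 points in eYFP- cells turned to 15.4 points. Of the 4 genes with a region rebuilt at P2, 0 had one with at least 3 differing CpGs and 2 had one with a flank of 5 kb. Dividing the library share by the autosomal share gave 5 genes called by stage in place of 4: Irx1 (4.21 in units of that share, exact permutation p = 0.0141), Irx2 (2.80, p = 0.0242, called lower without the division) and Sst (0.923, p = 0.00202) higher, and Ppy (-1.07) and Pyy (-1.63) lower, while Hhex turned from called lower to an uncalled 0.363 (p = 0.547). Within eYFP- or eYFP+ libraries alone, 0 of the 4 genes called by stage passed, as 2 against 4 libraries cannot give an exact permutation p below 0.0667. Without any one library 4 to 4 genes were called by stage and 0 to 0 by subtype. With the replicate block, 0 genes were called between P60 subtypes, as without it, and 4 pairs cannot give a p below 0.125. The pools have no replicates, and reads per CpG (24.0 at P2) limit what single CpGs can show. The other alternatives kept each count within 1.5 times.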
